A study of Mus musculus with 6 samples.

Results

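The genes that build cholesterol and fatty acids were examined in the femurs of ovariectomized (OVX) mice, in which removal of the ovaries models postmenopausal bone loss. The members were 30 genes found by symbol among the 54532 genes of the table, and each symbol was present once. By role they comprise 7 mevalonate steps, 10 squalene and sterol steps, 5 genes of SREBP control and sterol transport, and 8 fatty acid steps. The labels describe 6 samples of genotype WT, of which 3 were OVX with saline and 3 received oral zingerone, a compound of ginger, at 100 mg/kg daily over 8 weeks. Table columns could be matched by name to the 3 OVX samples alone, called libraries 1, 2 and 3. Zingerone was therefore not analysed here, and no conditions were compared. The sources used here give neither the age nor the strain of the mice. The titles assign 8, 9 and 10 weeks to libraries 1, 2 and 3, so a difference between libraries and a difference between weeks cannot be told apart.

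Cholesterol is made from acetyl-CoA. The mevalonate steps yield isoprenoid units, which are joined to squalene, closed into lanosterol and trimmed to cholesterol. Fatty acids start from acetyl-CoA that Acly releases from citrate, and are built by the acetyl-CoA carboxylases and Fasn before elongation and desaturation. The transcription factors SREBP1 and SREBP2, encoded by Srebf1 and Srebf2, switch on enzymes of both routes after Scap has escorted them out of the endoplasmic reticulum, and the Insig proteins hold Scap back when sterols are plentiful. In bone, the mevalonate pathway is known as the target of nitrogen-containing bisphosphonates, drugs against osteoporosis that inhibit the enzyme encoded by Fdps in osteoclasts.

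SREBPs bind sterol regulatory elements and act together with the factors NF-Y and Sp1. Promoters of 24 members were found in the RefSeq table of build GRCm38.p6, the patch release of mm10, while Fdps, Fdft1, Sqle, Stard4, Scd1 and Scd2 had no entry there. Shown are 3: Hmgcs1, which makes HMG-CoA for the mevalonate route, Insig1, the regulator that varied most between libraries, and Fasn, which builds the fatty acid chain. Each run covers up to 250 bases before the RefSeq start and stops where the gene listed in the table begins. Capitals mark matches on either strand to the sterol regulatory element TCACNCCAC, the E-box CACGTG and the NF-Y box CCAAT.
Hmgcs1 (chr13:119690101-119690350, plus strand): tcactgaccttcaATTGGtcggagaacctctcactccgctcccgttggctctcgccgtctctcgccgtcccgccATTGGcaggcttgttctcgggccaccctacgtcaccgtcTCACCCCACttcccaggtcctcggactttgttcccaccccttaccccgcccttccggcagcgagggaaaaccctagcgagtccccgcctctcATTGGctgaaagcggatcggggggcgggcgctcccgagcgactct
Insig1 (chr5:28071162-28071362, plus strand): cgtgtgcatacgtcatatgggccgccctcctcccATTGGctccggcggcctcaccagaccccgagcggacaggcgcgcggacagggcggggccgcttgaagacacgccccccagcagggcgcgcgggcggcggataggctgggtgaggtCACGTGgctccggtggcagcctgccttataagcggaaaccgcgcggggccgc
Fasn (chr11:120824548-120824797, minus strand): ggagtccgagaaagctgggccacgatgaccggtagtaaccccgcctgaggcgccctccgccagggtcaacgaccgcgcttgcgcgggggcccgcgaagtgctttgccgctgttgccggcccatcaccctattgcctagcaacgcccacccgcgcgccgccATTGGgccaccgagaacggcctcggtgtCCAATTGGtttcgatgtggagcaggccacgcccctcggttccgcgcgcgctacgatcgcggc
Counted from 1 at the 5′ end of each run, the Hmgcs1 element lies at bases 114 to 122, and its NF-Y boxes begin at bases 14, 75 and 206. Insig1 holds an E-box at bases 150 to 155 and an NF-Y box from base 35. In Fasn, NF-Y boxes begin at bases 161, 189 and 192, and the last pair overlap, so they are printed as 1 run of capitals.

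Of the 24 members with a promoter, 19 (79.2%) had an NF-Y box within the 250 bases, against 40.3% of the 9620 tested genes in the same table and 37.5% of all 27025 genes there. At least 2 NF-Y boxes were present in 10 members and in 15.0% of tested genes. The Sp1 box GGGCGG, searched on both strands, was found in 19 members (79.2%), against 62.5% of tested genes and 35.4% of all genes. An E-box was present in Hsd17b7, Sc5d, Dhcr7, Insig1 and Scap, which is 20.8% of the members, against 9.93% of tested genes and 6.86% of all genes. The exact sterol regulatory element was found in 1 member, Hmgcs1 (4.17%), against 1.25% of tested genes and 1.22% of all genes. A gene with several starts was counted if any of its windows held the motif, and a match of letters is not a measured binding site.

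**Figure D1:**
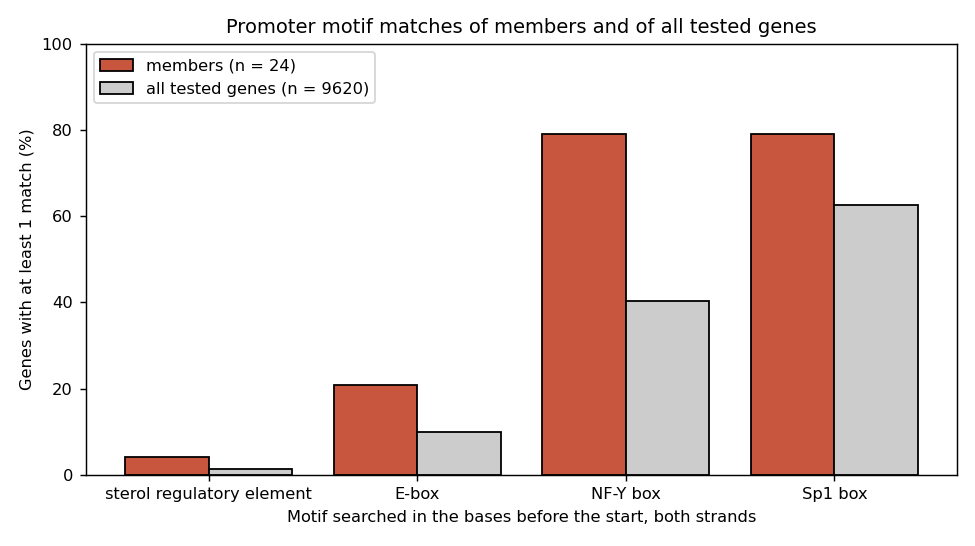
Share of genes (y axis, %) with at least 1 match to each motif (x axis) in the 250 bases before the start, for the 24 members with a promoter (red bars) and the 9620 tested genes with one (grey bars). The NF-Y box is at 79.2% of members and 40.3% of tested genes, and the sterol regulatory element at 4.17% and 1.25%.

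The libraries held 16581579 to 17017907 reads. Levels are FPKM, fragments per kilobase of gene scaled to the library total, and means are given ± SD over the 3 libraries. No label names separate animals, so this spread may be technical in part. The 14011 genes that averaged 1 FPKM or more were tested for a difference between libraries by a chi-square test on the reads recovered from the FPKM, with Benjamini-Hochberg adjustment over these genes and a threshold of 0.05. The test asks whether libraries differ beyond counting noise and not whether conditions differ, and a given ratio passes it more easily in a gene with many reads. Ratios of the highest to the lowest library carry exact 95% intervals, which cover counting error only. They make no allowance for the choice of the extreme pair among the 3 libraries. An interval can exclude 1 in a gene that does not pass the test.

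The labels name bone as well as RAW264.7, a macrophage-like line, and osteoclast precursor cells. The libraries held blood, marrow and bone transcripts together, with Hbb-bs, an adult globin, at 20397 to 26898 FPKM and the bone collagen Col1a1 at 364 to 1597 FPKM. Library 2 stood apart, since the summed FPKM of 10 skeletal muscle markers was 143 there against 1651 in library 1 and 990 in library 3, and that of 9 chondrocyte markers was 563 against 24.8 and 54.2. In such tissue RNA, fewer cells of a type and less RNA per cell cannot be told apart. Among 4 liver and skin markers, Krt5 and Krt14 were at 0 reads and Alb and Apoa1 reached at most 0.0489 FPKM.

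Mean levels of the members ran from 0.225 FPKM for Fdps to 56.7 FPKM for Scd1. The median was 5.07 FPKM over all 30, 5.46 FPKM over the 28 tested members and 7.08 FPKM over all tested genes. In the order of mean levels, 24 of 29 pairs of neighbours had overlapping values over the libraries, so most places in this order are not separated by more than the spread. The 5 gaps came directly below Acly, Srebf2, Elovl6, Hsd17b7 and Lss. Acly and Scd1 thus formed the top, Srebf2 stood alone beneath them, and Lss and Fdps were the members below 1 FPKM that were not tested.

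**Figure D2:**
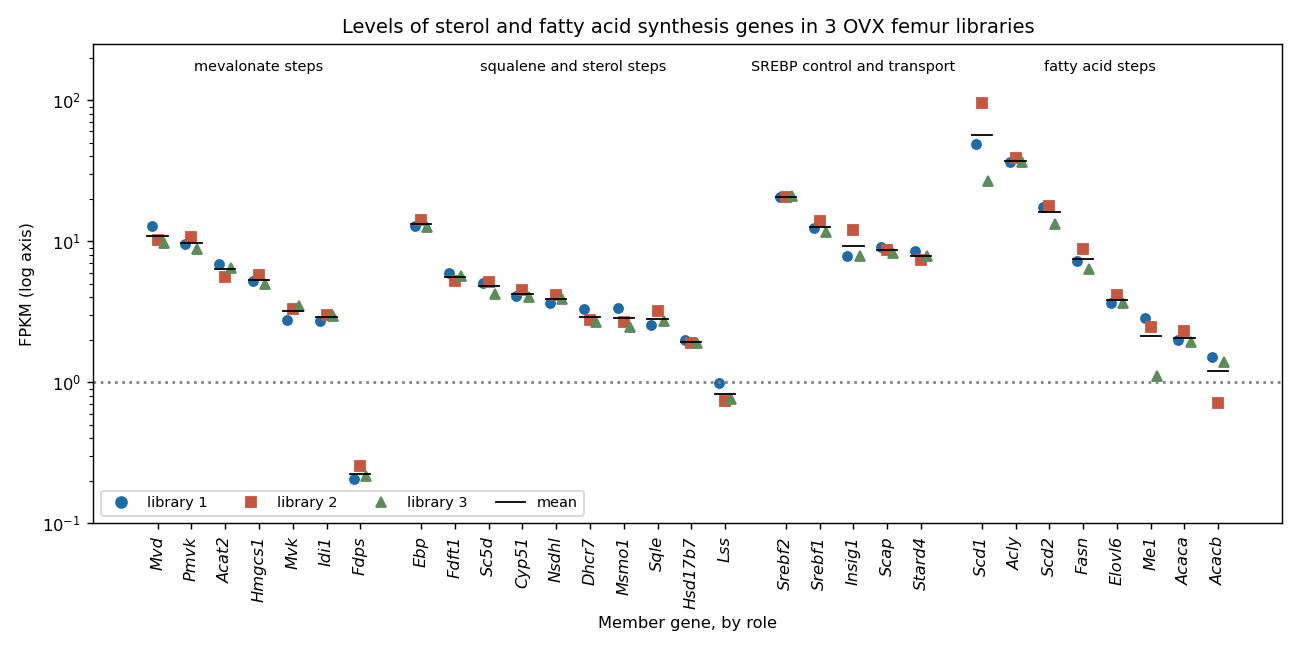
FPKM (y axis, log scale) of the 30 members grouped by role (x axis) in library 1 (circles), library 2 (squares) and library 3 (triangles), with the mean as a black line and 1 FPKM dotted. Scd1 is highest at 56.7 FPKM with widely spaced libraries, Acly follows at 37.3 FPKM with libraries close together, and Lss and Fdps lie below 1 FPKM.

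Of the 28 members tested, 14 (50%) differed between libraries at the threshold, against 38.7% of all tested genes. By role the members called were 2 of 6 mevalonate steps, 3 of 9 squalene and sterol steps, 3 of 5 control and transport genes, and 6 of 8 fatty acid steps. The mevalonate and sterol steps together had 5 of 15 members called (33.3%), a share near that of all genes, and the fatty acid steps had 75%; the difference between the routes was not tested. Without library 1, 2 or 3, 9, 8 and 9 members were called, against 24.9%, 18% and 29.8% of the genes then tested. Of these, 6, 4 and 3 were fatty acid steps and 1, 3 and 4 were mevalonate or sterol steps. The count of mevalonate and sterol steps was 3 under median-of-ratios scaling. A ratio of at least 1.5 was reached by 4 members, Scd1, Me1, Acacb and Insig1, against 17.2% of all tested genes, and of at least 2 by the first 3 of these, against 8.7%. The median ratio was 1.20 over the tested members, 1.35 over the fatty acid steps and 1.15 over all tested genes.

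**Figure D3:**
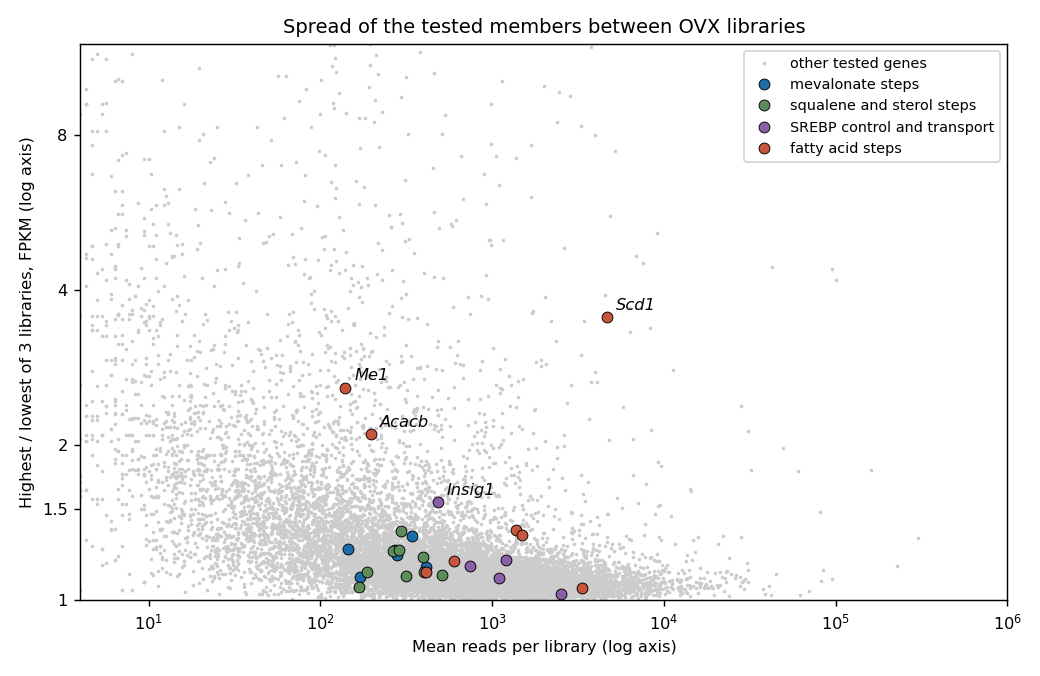
Ratio of the highest to the lowest library in FPKM (y axis, log scale) against mean reads per library (x axis, log scale) for the 28 tested members, coloured by role, and the other tested genes (grey). Scd1, Me1, Acacb and Insig1 are above 1.5. Not drawn are 97 genes with a ratio above 12, 108 whose lowest library was at 0 and 203 outside the range of reads shown. These sets were counted separately and can overlap.

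Among the mevalonate steps, Mvd and Pmvk were the most abundant. Mvd, the mevalonate diphosphate decarboxylase (ENSMUSG00000006517, mm10 chr8:122433601-122443422), was at 12.9, 10.1 and 9.66 FPKM in libraries 1, 2 and 3, with a mean of 10.9 ± 1.73. Library 1 lay above the others, which were close to each other. The ratio of highest to lowest was 1.33 (1.14 to 1.55), and the chi-square adjusted p was 0.000259. It was 0.756 without library 1, so the call rests on that library.

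Pmvk, the phosphomevalonate kinase of the step before (ENSMUSG00000027952, mm10 chr3:89454541-89469013), was at 9.56, 10.7 and 8.76 FPKM, a mean of 9.67 ± 0.981. Its ratio of 1.22 (1.03 to 1.45) did not pass the test (chi-square adjusted p = 0.138). The other tested mevalonate genes had means from 2.89 FPKM for Idi1, the isopentenyl diphosphate isomerase, to 6.33 FPKM for Acat2, which condenses acetyl-CoA. Hmgcs1, the HMG-CoA synthase whose promoter is printed above, was at 5.25, 5.76 and 4.96 FPKM and did not pass (chi-square adjusted p = 0.205). Acat2 was called, at 6.94, 5.55 and 6.49 FPKM, with a chi-square adjusted p of 0.045 that was 0.0797 under median-of-ratios scaling, 0.186 without library 1 and 0.541 without library 2.

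Fdps, the farnesyl diphosphate synthase (ENSMUSG00000059743, mm10 chr3:89093588-89101959), was listed at 0.206, 0.254 and 0.216 FPKM, a mean of 0.225 ± 0.0252. These values stand for 15, 18 and 15 reads, and the libraries overlapped within counting error. Mvd was on average 49.0 ± 11.8 times as high within a library. In GENCODE M21, 1124 of the 1308 coding bases of Fdps (85.9%) also lie in exons of Gm43738 on the same strand, and Gm43738 was listed at 0 reads in every library. The sources used here do not state how reads in shared exons were assigned, so the level of Fdps is uncertain and its relation to this sharing was not tested. Among 175 protein-coding genes with 50% to under 90% of coding bases shared in this way, 58.9% reached 1 FPKM, as did 13.4% of the 381 genes with at least 90% shared and 53.9% of the 20844 with none.

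Of the squalene and sterol steps, Ebp and Fdft1 were the most abundant. Ebp, a sterol isomerase (ENSMUSG00000031168, mm10 chrX:8185329-8193512), was at 12.8, 14.1 and 12.6 FPKM, a mean of 13.2 ± 0.821. Its ratio of 1.12 (0.989 to 1.27) had a counting interval that included 1 (chi-square adjusted p = 0.307). Fdft1, the squalene synthase that commits farnesyl units to sterols (ENSMUSG00000021273, mm10 chr14:63145150-63179578), was at 5.93, 5.22 and 5.64 FPKM, a mean of 5.60 ± 0.354. It did not pass either (chi-square adjusted p = 0.196). Of its exonic bases, 18.3% overlap Ctsb on the opposite strand, which had 16617 to 19288 reads, and the sources used here do not state whether the counting used strand, so reads of this pair cannot be told apart there.

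Lss, the lanosterol synthase that closes the sterol ring (ENSMUSG00000033105, mm10 chr10:76531588-76557138), was at 0.987, 0.737 and 0.757 FPKM, a mean of 0.827 ± 0.139. Its listed length of 10787 bases contrasts with 2223 coding bases. Its 134 to 184 reads were similar in number to those of some tested members, such as Mvk with 128 to 154. Lss was left out by the filter on FPKM, and with no filter it was among the genes called.

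The remaining sterol steps had means from 1.93 FPKM for Hsd17b7 to 4.81 FPKM for Sc5d. Of them, 3 passed the test. Msmo1, a methylsterol oxidase, was at 3.38, 2.67 and 2.48 FPKM (chi-square adjusted p = 0.00041). Dhcr7, which reduces the last double bond on the way to cholesterol, was at 3.32, 2.76 and 2.66 FPKM (chi-square adjusted p = 0.0174). Both were highest in library 1, like Mvd, and neither was called without it, with adjusted p of 0.625 for Msmo1 and 0.843 for Dhcr7 in the same chi-square test. Sc5d, the lathosterol desaturase, was at 5.02, 5.15 and 4.25 FPKM, lowest in library 3 (chi-square adjusted p = 0.0402). Its chi-square adjusted p was 0.985 without library 3, 0.0594 without library 2 and 0.051 under median-of-ratios scaling. Sqle, the squalene epoxidase, Cyp51, the lanosterol demethylase, Nsdhl and Hsd17b7 did not pass, with chi-square adjusted p from 0.107 to 0.785.

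Summed over all 17 mevalonate and sterol members, levels were 84.0, 83.1 and 77.5 FPKM in libraries 1, 2 and 3, a mean of 81.5 ± 3.56. Highest and lowest differed 1.08-fold, although 5 single members were called. The marker sums that set library 2 apart differed 11.5-fold over 10 muscle genes and 22.7-fold over 9 chondrocyte genes. Sums of osteoclast, adipocyte and osteoblast markers differed 2.78- to 3.40-fold, and that of erythroid markers 1.25-fold. Those of macrophage, proliferation, neutrophil and B cell markers differed 1.05- to 1.11-fold, a range like that of the sterol sum.

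Srebf2, which encodes the SREBP of sterol synthesis (ENSMUSG00000022463, mm10 chr15:82147181-82205379), was at 20.5, 20.6 and 21.1 FPKM, a mean of 20.7 ± 0.323. With 2487 to 2541 reads per library, its ratio of 1.03 (0.973 to 1.09) included 1 in its counting interval (chi-square adjusted p = 0.685). Srebf1, which encodes the SREBP of fatty acid synthesis (ENSMUSG00000020538, mm10 chr11:60199089-60222581), was at 12.4, 13.8 and 11.5 FPKM, a mean of 12.6 ± 1.16. Its ratio was 1.20 (1.10 to 1.30), with a chi-square adjusted p of 0.000479, which was 0.14 without library 2 and 0.0741 without library 3. Within each library Srebf2 was the higher of the pair, 1.66 ± 0.170 times Srebf1.

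Insig1, which retains Scap and is itself a known SREBP target (ENSMUSG00000045294, mm10 chr5:28071363-28078662), was at 7.90, 12.1 and 7.80 FPKM, a mean of 9.26 ± 2.44. Library 2 was high and the others were nearly equal. The ratio was 1.55 (1.36 to 1.76), with a chi-square adjusted p of 3.3e-13. Between libraries 1 and 3 alone the chi-square adjusted p was 0.823, so the call rests on library 2. Insig2, its paralog, was also highest in library 2, at 8.71, 11.6 and 9.33 FPKM.

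Scap, the escort protein, was at 9.10, 8.73 and 8.23 FPKM and did not pass (chi-square adjusted p = 0.0554). It passed without library 2, with a chi-square adjusted p of 0.0366. Stard4, a cytosolic sterol carrier, was at 8.53, 7.33 and 7.83 FPKM and was called (chi-square adjusted p = 0.0109), with a chi-square adjusted p of 0.368 without library 1 and 0.153 without library 2.

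Scd1 showed the widest range of all members. This stearoyl-CoA desaturase, which makes monounsaturated fatty acids (ENSMUSG00000037071, mm10 chr19:44394451-44407709), was at 48.6, 94.9 and 26.8 FPKM, a mean of 56.7 ± 34.8. The values rest on 4061, 7730 and 2139 reads, so counting error is small beside the spread. Library 2 was 3.55 times library 3 (3.38 to 3.72), library 1 lay between, and the gene was called with each library left out in turn. Scd2, the neighbouring desaturase on chromosome 19, was at 17.5, 17.8 and 13.3 FPKM, with a ratio of 1.34 (1.24 to 1.44) and a chi-square adjusted p of 1.47e-15. Here libraries 1 and 2 were alike and library 3 was low, and without library 3 the chi-square adjusted p was 0.964. Scd1 was accordingly 2.78, 5.33 and 2.01 times Scd2 in libraries 1, 2 and 3.

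Acly, the ATP citrate lyase that supplies cytosolic acetyl-CoA to both routes (ENSMUSG00000020917, mm10 chr11:100476353-100528000), was at 36.7, 38.7 and 36.6 FPKM, a mean of 37.3 ± 1.18. It had 3194 to 3439 reads and did not pass the test (chi-square adjusted p = 0.198). Fasn, the fatty acid synthase, was at 7.30, 8.74 and 6.38 FPKM, a mean of 7.47 ± 1.19. Its ratio was 1.37 (1.27 to 1.48), with a chi-square adjusted p of 7.36e-14, and like Scd1 it was called with any single library left out. Within a library Acly was 5.06 ± 0.656 times Fasn.

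The carboxylases did not share a profile. Acacb, the carboxylase at the mitochondrial surface (ENSMUSG00000042010, mm10 chr5:114146535-114250761), was at 1.5, 0.715 and 1.39 FPKM, a mean of 1.20 ± 0.427. It was lowest in library 2, with a ratio of 2.10 (1.68 to 2.64) and a chi-square adjusted p of 8.18e-11, and without library 2 the chi-square adjusted p was 0.548. Acaca, the cytosolic carboxylase of synthesis, was at 1.99, 2.29 and 1.93 FPKM and highest in library 2 (chi-square adjusted p = 0.0267), and it was not called without library 2 (0.626) or without library 3 (0.0958). Acaca was therefore 1.32, 3.21 and 1.38 times Acacb.

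Me1, the malic enzyme that supplies NADPH (ENSMUSG00000032418, mm10 chr9:86581371-86695953), was at 2.84, 2.45 and 1.10 FPKM, a mean of 2.13 ± 0.914. Library 3 was low, at 70 reads against 189 and 159, and the ratio was 2.58 (1.95 to 3.45) with a chi-square adjusted p of 7.09e-11. Without library 3 the chi-square adjusted p was 0.24. Elovl6, the elongase of palmitate, was at 3.64, 4.14 and 3.66 FPKM and did not pass (chi-square adjusted p = 0.273).

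The 8 fatty acid members summed to 120.0, 169.7 and 91.1 FPKM, a mean of 126.9 ± 39.8 and a 1.86-fold range. Without Scd1 the sums were 71.4, 74.8 and 64.4 FPKM, a 1.16-fold range. Most of the spread of the sum was therefore that of a single gene.

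The summed level of fat cell marker genes differed between the libraries in the same order as Scd1. Summed over 12 adipocyte markers, FPKM was 195.5, 363.2 and 128.1 in libraries 1, 2 and 3. Cfd, the adipocyte protein adipsin, made up much of this spread at 55.1, 184.2 and 9.25 FPKM, and without it the sums were 140.4, 179.0 and 118.9 FPKM. All 9 tested markers of this list were called, against 38.7% of all tested genes, as were all tested markers of the osteoblast, osteoclast, chondrocyte, muscle, neutrophil and B cell lists. Of the 9, 8 were highest in library 2, against 33.6% of all called genes, and all were lowest in library 3, against 29.3%. The exception was Lpl, highest in library 1, at 19.7, 15.8 and 13.3 FPKM. The abundant markers Adipoq, at 58.5, 73.0 and 52.3 FPKM, and Fabp4, at 41.7, 51.2 and 40.9 FPKM, varied less than Scd1. Their ratios of highest to lowest were 1.40 and 1.25, against 3.55 for Scd1. Of the other tested markers, Lpl, Pparg, Lipe and Plin4 had ratios of 1.48 to 2.46. Cfd, Plin1 and Cidec varied more than Scd1, with ratios of 19.9, 42.0 and 160, where library 3 held 9 reads of Plin1 and 2 of Cidec. No marker of the list was at 0 in all libraries. The lipid droplet genes Plin1 and Cidec were at 1.67, 4.92 and 0.117 FPKM and at 2.71, 10.4 and 0.0652 FPKM, and Lep, leptin, was at 0.155, 0.460 and 0 FPKM. The osteoblast marker sum had the order of Scd1 too, at 2639, 6286 and 1849 FPKM, as did 7 of its 10 genes. Ibsp, Spp1 and Alpl were lowest in library 1. Library 2 above library 1 above library 3, the order of Scd1, held for 14.6% of all called genes. The muscle marker sum took the order of Acacb, at 1651, 143 and 990 FPKM. All 10 muscle genes were lowest in library 2, against 42.6% of all called genes, and Myh1 was highest in library 3. Library 1 above library 3 above library 2, the order of Acacb, held for 24.6% of all called genes. The part of these cell types in the values of Scd1, Insig1, Acacb and Me1 was not tested. Macrophage markers, at 346, 365 and 365 FPKM, and erythroid markers, at 37243, 40212 and 46553 FPKM, did not have the order of Scd1. The osteoclast sum was 398, 1107 and 833 FPKM, and the neutrophil sum 23893, 26115 and 24321 FPKM. Both were highest in library 2 and lowest in library 1, as was the chondrocyte sum. The B cell sum was highest in library 1, at 532, 482 and 481 FPKM. The proliferation sum was highest in library 3, at 558, 556 and 597 FPKM.

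**Figure D4:**
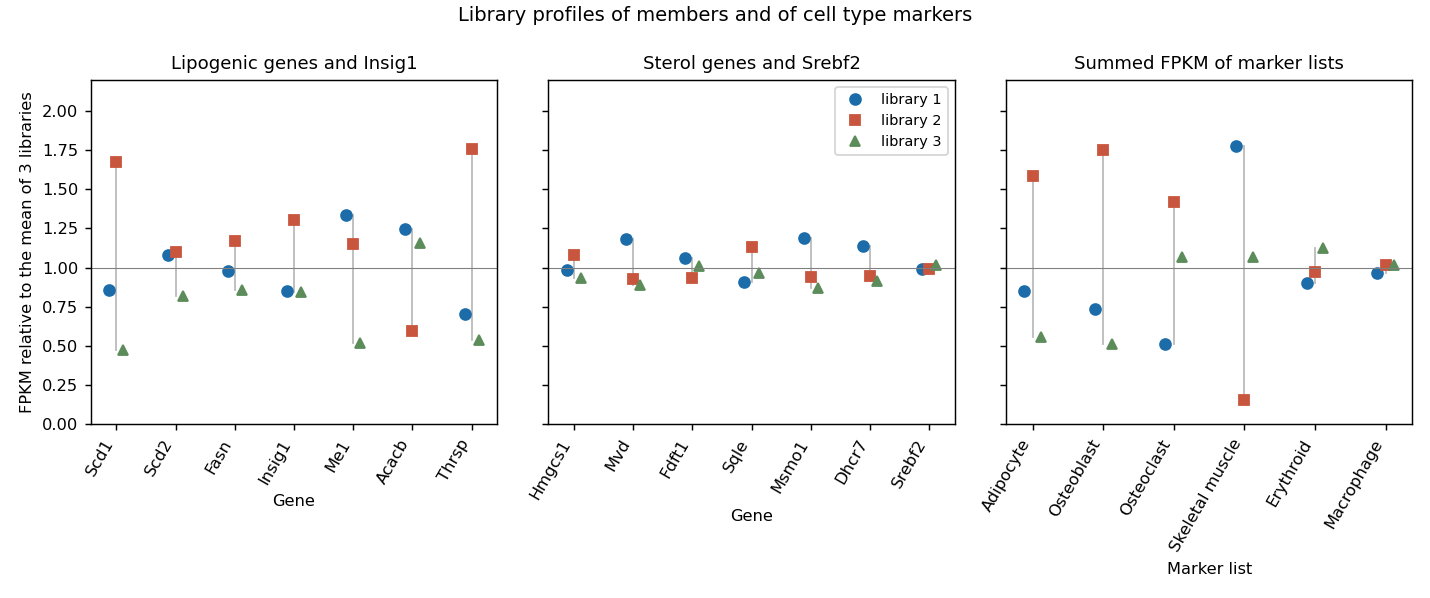
FPKM relative to the mean of the 3 libraries (y axis). Drawn are fatty acid genes with Insig1 (left), sterol genes with Srebf2 (middle) and summed marker lists (right). Library 1 is shown as circles, library 2 as squares and library 3 as triangles. Scd1, Thrsp and the adipocyte and osteoblast sums are highest in library 2 and lowest in library 3, Acacb and the muscle sum are lowest in library 2, and Srebf2 is level.

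Over the 28 tested members, library 3 was the lowest for 17, against 30.6% of all tested genes. Library 2 above library 1 above library 3 was the commonest order, with 12 members, against 16.5% of all tested genes. It held for Hmgcs1, Pmvk, Cyp51, Ebp and Sc5d of the sterol route, for Insig1 and Srebf1, and for Fasn, Acaca, Acly, Scd1 and Scd2. Of these 12, 7 passed the test, where 38.7% of all tested genes passed, and the other 5 did not differ beyond counting noise at the threshold. The order held for 14.6% of all called genes and for 7 of the 14 called members. None of the 14 called members was highest in library 3, where 26.9% of all called genes were highest.

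Further genes of sterol handling were taken from a list of 18 that holds no member. Of 17 tested, 12 were called (70.6%, against 38.7% of all tested genes), and their summed FPKM was level at 325.9, 325.9 and 324.1. The most abundant was Lbr, a sterol reductase of the nuclear envelope, at 95.1, 91.8 and 97.6 FPKM. Npc2, which carries cholesterol within lysosomes, was at 44.4, 58.7 and 50.3 FPKM, highest in library 2 (chi-square adjusted p = 3.23e-34). Nr1h2, the oxysterol receptor LXR beta, was at 33.5, 31.2 and 29.4 FPKM (chi-square adjusted p = 0.000205).

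In the corresponding fatty acid list of 24 genes, 7 of 20 tested were called (35.0%), a share near the 38.7% of all tested genes. Its most abundant genes were close between libraries. G6pdx and Pgd, which make NADPH in the pentose phosphate pathway, were at 54.7, 53.4 and 53.7 FPKM and at 50.1, 51.5 and 47.5 FPKM. Idh1, which makes NADPH in the cytosol, was at 28.7, 28.6 and 27.7 FPKM. Pgd was nevertheless called, at a ratio of 1.08 (chi-square adjusted p = 0.000374), and G6pdx and Idh1 were not. Thrsp, known as Spot 14 and tied to lipogenesis in fat and liver, was at 4.49, 11.2 and 3.43 FPKM, with a ratio of 3.27 (2.67 to 4.03) and a chi-square adjusted p of 1.55e-42. It had the order of Scd1 over the libraries. Mlxipl, the carbohydrate response factor ChREBP, was at 0.784, 0.268 and 0.437 FPKM, lowest in library 2, and was below the level for testing. Scd3, Scd4 and Elovl3 had at most 4 reads in any library, so no ratio is given for them.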

How the data were processed

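Per the labels' protocols, frozen femurs were ground and total RNA was sequenced. Trimmomatic, FastQC, STAR, featureCounts and the build mm10 are named in the submitters' processing notes, and the sources used here give no versions, settings or strandedness. FPKM were deposited by the authors, with 1 length per gene. A column was used where its name matched a library name in the labels, and 3 columns of values matched none and were not used. The planned test of zingerone against OVX (limma on log2 FPKM) was therefore not run.

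FPKM multiplied by gene length gave whole reads for 100% of values within 0.01 read, and reads listed per library were 17017907, 16964740 and 16581579. The totals behind the FPKM were 1.02, 0.993 and 0.997 times these. The chi-square test compared reads per gene with the reads listed, over genes averaging 1 FPKM or more, and was tested on simulated data. Simulated libraries differed by counting noise alone, apart from genes raised on purpose. They do not show how the test behaves when libraries differ further. A count of 0 allows up to 3 reads. Reads are not independent molecules, so intervals cover counting error only. Listed genes were matched to GENCODE M21 by identifier (54495 of 54532).

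The members and lists were chosen with earlier results of these data known. Full values were given for the 2 most abundant members of each role, members with a ratio of at least 1.5 and members below 1 FPKM, and of the other pathway lists for the 3 most abundant genes and those with a ratio of at least 2. A gene of these lists is not reported here. Other members named with values, the paralog Insig2 and the marker genes were chosen after their values were seen. Alternatives were other scalings, filters and each library left out. Calculations ran in Python 3.11.15 with scipy 1.17.1, pandas 2.3.3 and numpy 2.4.6, and plots in matplotlib 3.10.9.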

Additional observations from a re-analysis of the deposited data

How the results depend on the processing

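The count of members that differed between libraries was 14 of 28, against 38.7% of all tested genes. It was 12 under median-of-ratios scaling, upper-quartile scaling and, added after the data were seen, with expected reads from the totals behind the FPKM, against 37.4%, 38.1% and 37.4% of all genes tested there, and 14 with FPKM recomputed from the reads listed, against 38.6%. With no filter it was 13 of 30, against 22.4%, and among genes averaging 5 FPKM or more it was 9 of 15, against 44.9%, where fewer genes were tested. With 1 library left out it ranged from 8 to 9, against 18% to 29.8% of all tested genes. Without library 2 among the same tested genes, an alternative added after the data were seen, it was 8, against 18.2%. The Acat2 and Sc5d calls were lost under both scalings, with no filter and with the totals behind the FPKM. Fasn and Scd1 were called in every setting run. The fatty acid calls were 6, 4 and 3 without libraries 1, 2 and 3. Without its highest member, the mean summed FPKM was 70.2 for the fatty acid members and 68.4 for the sterol members. Left out in turn, libraries gave sums of 105.6 to 144.9 and of 80.3 to 83.6. No paired analysis was possible because only columns of the OVX group could be matched to labels. Other settings listed for zingerone against OVX (pseudocount, filter, scaling, edgeR, block on the week and replicates left out) were not run for the same reason.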
